A study of Drosophila melanogaster with 8 samples.

Results

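Basement membrane genes were followed across 2 organs and 2 genotypes of the female fruit fly, Drosophila melanogaster. The set holds 10 genes, namely Col4a1, vkg, LanA, LanB1, LanB2, trol, Ndg, SPARC, Ppn and Pxn, out of 11982 genes that the array annotation names with a single symbol. A probe set, the group of array probes that reports 1 transcript region, was taken when its annotated symbol was one of the 10. This gave 18 probe sets, with 8 for trol, 2 for Pxn and 1 for each of the other genes. RNA came from 4-day-old mated adult females and was measured on 8 Affymetrix arrays, in 4 groups of 2. The groups are the spermathecae, which are the glands that store sperm, and the lower reproductive tract without the spermathecae, both dissected from wild-type and from Hr39(04443) mutant females. The gene Hr39 codes for an Sf1-related nuclear hormone receptor, whose role in building and running the female tract is the subject of the series. The labels name no wild-type strain, do not say how many animals were dissected, and call the arrays of a group an original and a duplicate. Separate animals are not stated, so p-values weigh differences only against the spread between arrays of a group, and that spread may be technical. The spread was pooled over the 4 groups and partly shared between probe sets.

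A basement membrane is the thin sheet of extracellular matrix that underlies epithelia and wraps muscle, nerve and fat. Laminin trimers polymerise at cell surfaces, collagen IV trimers form a second and crosslinked network, and nidogen and perlecan are associated with both. Cells bind the sheet through integrins and dystroglycan. In Drosophila, fat body cells and hemocytes (blood cells) are major sources of collagen IV in the larva, and muscle and epithelial cells also make matrix proteins.

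Signals are array intensities on a linear scale (MAS5). Differences are on the log2 scale after a pseudocount of 4, with a standard error (SE), and every group has n = 2 arrays. Calls use limma with Benjamini-Hochberg adjustment over 10113 tested probe sets at an adjusted p below 0.05. Testing required a signal at or above the median of the array, in both replicates of 1 group or more, and array medians lay between 17.7 and 22.5. Of the 18 probe sets of the basement membrane genes 14 were tested, and they cover all 10 genes. The 4 left out (trol 1630978_s_at, 1637281_at and 1640050_at, and Pxn 1629847_at) passed in no group. Of the 14, 12 reached the median in all 4 groups. In whole organs, fewer cells of a type and less RNA per cell cannot be told apart.

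Arrays of a group correlated across the tested probe sets with r from 0.963 to 0.979. The Hr39 probe set 1630002_s_at read 821 and 725 in wild-type spermathecae against 477 and 452 in the mutant, and 73.3 and 88.2 in the wild-type lower tract against 59.6 and 65.4 in the mutant. It passed as lower in the spermathecae (adjusted p = 0.0351) and not in the lower tract (adjusted p = 0.368), and the other 3 Hr39 probe sets passed in neither organ. Where the probes lie relative to the mutation was not analysed here. Secretory markers of the spermathecae, a list that counts the Hr39 probe sets, were higher in that organ for 11 of 11 probe sets in each genotype. Of all tested probe sets 22.2% were called higher there in wild type and 24.7% in the mutant. The list was chosen with earlier results of these data known, so it is no independent check of the dissection. Wild-type lower tract replicate 1 held germline RNA, with a summed signal over 11 germline probe sets of 4262 against 663 to 964 on the other lower tract arrays. The actin control's 3' to 5' signal ratio, which rises as RNA degrades, was 7.09 on replicate 1 of the wild-type spermathecae against 1.34 to 2.14 on the other arrays. For GAPDH the same ratio was 5.87 on that array, 2.66 on its replicate, and 3.81 and 4.05 in mutant spermathecae, against 2.46 to 2.88 in the lower tract. The eIF-4a ratio was 3.06 to 3.35 on the 4 spermatheca arrays and 2.75 to 2.94 on the 4 lower tract arrays, so it moved with the organ, and its part in the organ differences was not tested. Without either of the arrays singled out here (wild-type lower tract replicate 1, wild-type spermathecae replicate 1), 13 basement membrane probe sets were called lower in spermathecae in each genotype. For the basement membrane genes, calls between genotypes that end without one of them are given with that value below. For Hr39, the related lists and the cell markers such values are not given, so their calls may rest on these arrays.

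**Figure D1:**
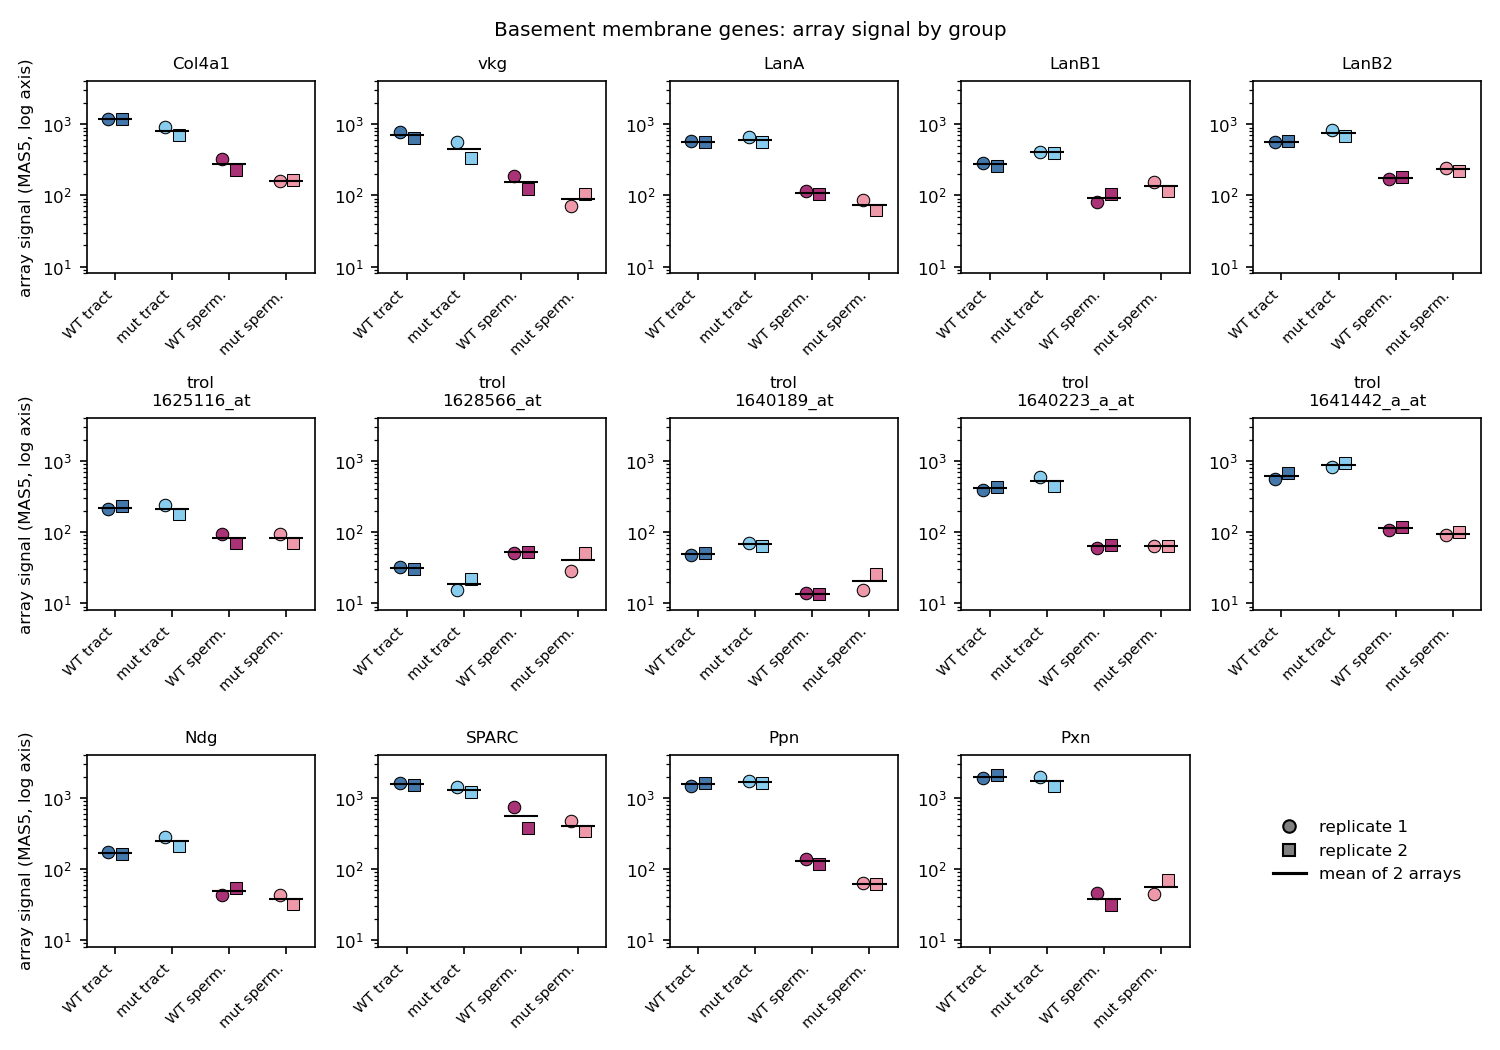
Array signal (MAS5, log axis) of the 14 tested probe sets of the basement membrane genes in wild-type and mutant lower tract (WT tract, mut tract) and spermathecae (WT sperm., mut sperm.). Circles and squares are the 2 arrays of a group and the line is their mean. In 13 of the 14 panels every spermatheca array lies below every lower tract array, and trol 1628566_at is the exception. The share of all tested probe sets separated in this way was not counted.

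The comparison of organs asks how the spermathecae and the rest of the tract differ in basement membrane transcripts. All 10 genes had at least 1 probe set with lower signal in the spermathecae than in the lower tract, in wild type and in the mutant. Of the 14 tested probe sets, 13 were lower in spermathecae and 0 higher in each genotype. Over all probe sets, 21.5% were called lower in wild type and 21.5% in the mutant, and 22.2% and 24.7% were called higher. The median difference of the 14 was -1.90 in wild type and -2.29 in the mutant, against 0.07 and 0.14 over all tested probe sets. With no filter on low signals, 13 of all 18 probe sets were lower and 0 higher in each genotype. The background of lower calls was then 10.6% in wild type and 11.0% in the mutant, and that of higher calls 10.5% and 11.7%.

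Collagen IV is encoded by Col4a1 (alpha-1 chain) and vkg (viking, alpha-2 chain), which are adjacent genes in the reference annotation. Col4a1 read 1169 and 1174 in wild-type lower tract, 907 and 718 in the mutant lower tract, 329 and 227 in wild-type spermathecae, and 157 and 164 in mutant spermathecae. The groups did not overlap and ran in that order, and the share of all probe sets without such overlap was not counted. Col4a1 was 4.24-fold lower in spermathecae in wild type (log2 -2.08, SE 0.198, adjusted p = 2.01e-05) and 4.93-fold lower in the mutant organ pair (log2 -2.30, adjusted p = 9.16e-06). For vkg the signals were 774 and 649.6 in the wild-type lower tract, 563 and 338 in the mutant lower tract, 189.6 and 124 in wild-type spermathecae, and 71.3 and 104 in mutant spermathecae. The order of groups was that of Col4a1, again without overlap, with organ differences of -2.18 in wild type (adjusted p = 0.000218) and -2.28 in the mutant (adjusted p = 0.000146). The Col4a1 probe set carries the suffix for probes shared between transcripts, as does that of LanB1.

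The laminin genes encode the alpha (LanA), beta (LanB1) and gamma (LanB2) chains of the trimer. LanA read 577 and 557 in wild-type lower tract, 661 and 557 in the mutant lower tract, 114 and 104 in wild-type spermathecae, and 86.2 and 62.0 in mutant spermathecae. It was 5.05-fold lower in spermathecae in wild type (log2 -2.34, SE 0.196, adjusted p = 8.38e-06) and 7.92-fold lower in the mutant (log2 -2.99, adjusted p = 1.4e-06), and both lower tract groups overlapped. LanB1 read 285 and 259.9 in wild-type lower tract and 412 and 397 in the mutant lower tract. In spermathecae it read 80.5 and 104 in wild type and 153 and 115 in the mutant, and its organ difference was -1.53 in wild type and -1.58 in the mutant (adjusted p = 0.000204 and 0.000155). LanB2 read 560.2 and 577 in wild-type lower tract and 826 and 686 in the mutant lower tract. In spermathecae it read 169 and 179 in wild type and 245 and 223 in the mutant, with organ differences of -1.69 and -1.67 (adjusted p = 1.9e-05 and 1.87e-05). Both LanB1 and LanB2 ran mutant tract, wild-type tract, mutant spermathecae, wild-type spermathecae from high to low, with no overlap between groups. The share of all probe sets without such overlap was not counted. The genotype differences of LanB1 and LanB2 passed in neither organ, as given below.

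Perlecan is the heparan sulfate proteoglycan of the sheet, encoded by trol, and its probe sets did not all move one way. Probe set 1640223_a_at read 393 and 436 in wild-type lower tract, 589.8 and 444 in the mutant lower tract, 60.9 and 66.2 in wild-type spermathecae, and 65.0 and 63.15 in mutant spermathecae. Probe set 1641442_a_at read 561 and 681.5 in wild-type lower tract, 817 and 955 in the mutant lower tract, 107 and 119.5 in wild-type spermathecae, and 91.4 and 100.4 in mutant spermathecae. Both were lower in spermathecae, by log2 differences of -2.63 and -2.41 in wild type (adjusted p = 3.55e-06 and 3.14e-06) and of -2.92 and -3.15 in the mutant (adjusted p = 1.56e-06 and 4.8e-07). Probe sets 1625116_at and 1640189_at were lower by -1.40 and -1.60 in wild type (adjusted p = 0.00123 and 0.00298) and by -1.30 and -1.56 in the mutant (adjusted p = 0.00176 and 0.00317). The second of these reached the array median on both replicates in the lower tract groups alone, and it read 47.8 to 70.1 there against 13.5 to 26.1 in spermathecae.

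The remaining tested trol probe set, 1628566_at, ran the other way. It read 32.3 and 30.8 in wild-type lower tract, 15.6 and 22.2 in the mutant lower tract, 51.3 and 53.3 in wild-type spermathecae, and 28.6 and 51.7 in mutant spermathecae. Its organ difference was 0.66 in wild type (95% interval -0.12 to 1.44, adjusted p = 0.153) and 0.91 in the mutant (0.13 to 1.69, adjusted p = 0.0566), and neither passed. It passed as higher in both genotypes with quantile normalization (adjusted p = 0.0446 in wild type and 0.0223 in the mutant). In the mutant it also passed with median centring (adjusted p = 0.0247), with no variance trend (adjusted p = 0.0368) and without mutant spermathecae replicate 1 (adjusted p = 0.034). Which trol transcripts each probe set reports was not analysed here. The 3 untested trol probe sets read 0.572 to 8.45 over all arrays.

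Nidogen, encoded by Ndg, binds laminin and collagen IV. Ndg read 176 and 161 in wild-type lower tract, 285 and 212 in the mutant lower tract, 43.4 and 54.0 in wild-type spermathecae, and 43.5 and 32.5 in mutant spermathecae. It was lower in spermathecae by -1.72 in wild type (SE 0.248, adjusted p = 0.000354) and by -2.59 in the mutant (adjusted p = 2e-05), with overlap between both spermatheca groups. SPARC, a collagen-binding glycoprotein, read 1599 and 1521 in wild-type lower tract, 1404 and 1203 in the mutant lower tract, 742 and 378 in wild-type spermathecae, and 471 and 345 in mutant spermathecae. Its organ difference was -1.55 in wild type (adjusted p = 0.0014) and -1.68 in the mutant (adjusted p = 0.000807). The high spermatheca array, at 742, is the one with the raised actin ratio.

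Papilin and peroxidasin had the largest organ differences of the 14 probe sets in both genotypes. Ppn encodes papilin, a large extracellular matrix glycoprotein with protease inhibitor domains. It read 1459 and 1629 in wild-type lower tract, 1736 and 1602 in the mutant lower tract, 139 and 118 in wild-type spermathecae, and 62.75 and 61.7 in mutant spermathecae. This was 11.7-fold lower in spermathecae in wild type (log2 -3.55, SE 0.156, adjusted p = 1.19e-07) and 25.2-fold lower in the mutant (log2 -4.66, adjusted p = 4.19e-08). Peroxidasin, encoded by Pxn, is a matrix peroxidase that crosslinks collagen IV. On probe set 1640097_at it read 1902 and 2069 in wild-type lower tract, 1957 and 1461 in the mutant lower tract, 45.8 and 30.8 in wild-type spermathecae, and 44.1 and 69.2 in mutant spermathecae. Pxn was 47.8-fold lower in spermathecae in wild type (log2 -5.58, SE 0.253, adjusted p = 1.39e-07) and 28.6-fold lower in the mutant (log2 -4.84, adjusted p = 3.21e-07). Its second probe set read 1.96 to 7.42 on 7 arrays and 22.7 on mutant lower tract replicate 1, and was not tested. The 95% intervals of Pxn and Ppn in wild type (-6.14 to -5.01 and -3.90 to -3.20) lay apart from those of the other 12 tested probe sets, which ran from -3.07 upward.

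**Figure D2:**
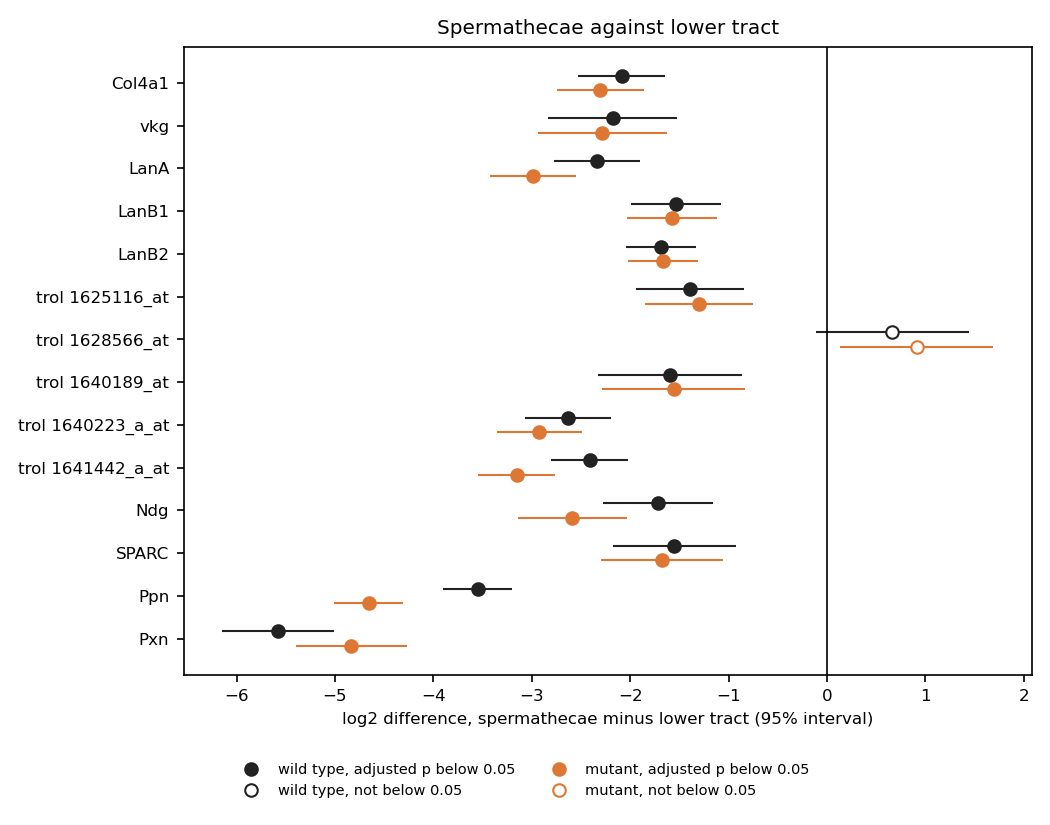
Log2 difference between spermathecae and lower tract for the 14 tested probe sets of the basement membrane genes, in wild type (black) and in the mutant (orange), with 95% intervals from limma; filled points passed at an adjusted p below 0.05. Values run from -5.58 for Pxn to 0.66 for trol 1628566_at in wild type, and 13 of 14 are called lower in each genotype.

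Markers of several other cell types moved with the organ as well, though not those of all cell types listed. As background, 21.5% of all probe sets were called lower in each genotype, and 22.2% (wild type) and 24.7% (mutant) higher. Muscle markers were lower in wild-type spermathecae for 18 of 20 tested probe sets and higher for 1. In the mutant they were lower for 16 and higher for 1. The summed signal of 21 muscle probe sets was 72657 to 89307 in the lower tract and 12046 to 13166 in spermathecae. Hemocyte markers were lower for 6 of 10 in wild type, among them Hml (hemolectin) at -2.87. They were lower for 9 of 10 in the mutant, with srp, the GATA factor serpent, higher in each genotype at 3.96 and 3.64. The summed hemocyte signal was 1947 to 3779 in the lower tract and 2724 to 3339 in spermathecae, of which srp made 1608 to 2332 in spermathecae. Fat body markers were lower for 6 of 6 in wild type, and 2 of 6 were higher and 0 lower in the mutant. Their summed signal was 10483 and 10702 in the wild-type lower tract, 5160 and 5777 in the mutant lower tract, and 3764 to 6874 in spermathecae. Tracheal markers were lower for 3 of 4 in each genotype, with summed signals of 875 to 1023 in the lower tract and 93.0 to 134 in spermathecae. Germline markers were lower for 4 of 4 in wild type, with a median of -3.65, and for 2 of 4 in the mutant. Their summed signals were 663 to 4262 in the lower tract and 102 to 161 in spermathecae. Of 11 germline probe sets only 4 were tested. On each spermatheca array 1 or 2 of the 11 reached the array median, against 9 and 4 on the wild-type lower tract arrays. Some were thus tested only through the lower tract, where they were high, which favours a lower call. Follicle and eggshell markers had 0 of 5 tested probe sets called in each genotype. Neuron markers had 0 of 3 called in wild type, and 1 higher and 1 lower in the mutant. The part of these cell types in the lower basement membrane signals of the spermathecae was not tested.

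Of 6 tested probe sets for the modification and export of collagen IV, 2 were higher in spermathecae, 1 was lower and 3 did not pass in each genotype, where 22.2% (wild type) and 24.7% (mutant) of all probe sets were called higher and 21.5% lower. PH4alphaEFB, a prolyl 4-hydroxylase, was 17.3-fold higher in wild-type spermathecae (log2 4.11, SE 0.14, adjusted p = 5.09e-08) and 10.9-fold higher in mutant spermathecae (log2 3.44, adjusted p = 8.35e-08) than in the lower tract. It read 7471 to 8456 on the 4 spermatheca arrays and 446 to 763 on the 4 lower tract arrays. Tango1, which packages collagen at endoplasmic reticulum exit sites, was higher by 1.11 in wild type and 1.15 in the mutant (adjusted p = 0.00131 and 0.001). Plod, a lysyl hydroxylase acting on collagen IV, was lower by -1.35 and -1.67 (adjusted p = 0.0037 and 0.000975).

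Receptors moved in both directions. Of 11 tested probe sets 3 were higher and 5 lower in wild-type spermathecae, and 3 higher and 6 lower in the mutant. The background over all probe sets was 22.2% (wild type) and 24.7% (mutant) higher, and 21.5% lower in each. The integrin alpha subunit genes mew (alpha-PS1, which pairs in a laminin receptor) and scb were higher in wild-type spermathecae, by 2.22 on mew 1640547_at and by 1.30 (adjusted p = 2.63e-06 and 0.000631). The alpha subunit gene if (inflated, alpha-PS2) was lower, by -2.08 in wild type and -2.27 in the mutant (adjusted p = 9.84e-05 and 4.87e-05). Of 14 tested probe sets of the intracellular integrin and dystroglycan complexes, 10 were lower and 2 higher in wild type, and 8 lower and 1 higher in the mutant. Ilk (integrin-linked kinase) was lower by -1.26 and the adaptor parvin by -0.94 in wild type.

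Among matrix proteases and inhibitors 4 of 7 tested probe sets were lower and 1 higher in spermathecae in each genotype. The background over all probe sets was again 21.5% lower in each genotype, and 22.2% (wild type) and 24.7% (mutant) higher. AdamTS-A, a secreted metalloprotease, was lower by -2.96 in wild type (adjusted p = 7.48e-06). Of its relatives in the list stl was the higher one, by 3.60 (adjusted p = 3.39e-05). Both probe sets of Timp, the metalloprotease inhibitor, were lower, by -1.15 and -1.48. Of 13 tested probe sets of other matrix proteins, 6 were lower and 2 higher in wild type, and 8 lower and 0 higher in the mutant. Mp (Multiplexin, a collagen of the XV and XVIII type) was lower in wild-type spermathecae by -2.36 on probe set 1632932_a_at (adjusted p = 3.42e-06), and Tig (tiggrin, an integrin ligand) by -2.57. The laminin alpha gene wb was higher in wild-type spermathecae by 1.36 (adjusted p = 0.00184), where its probe set 1626934_a_at read 120 and 96.1 against 37.3 and 41.4 in the lower tract. In the mutant wb read 41.0 and 43.9 in spermathecae and 44.6 and 47.5 in the lower tract, a difference of -0.11 that did not pass (adjusted p = 0.752).

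**Figure D3:**
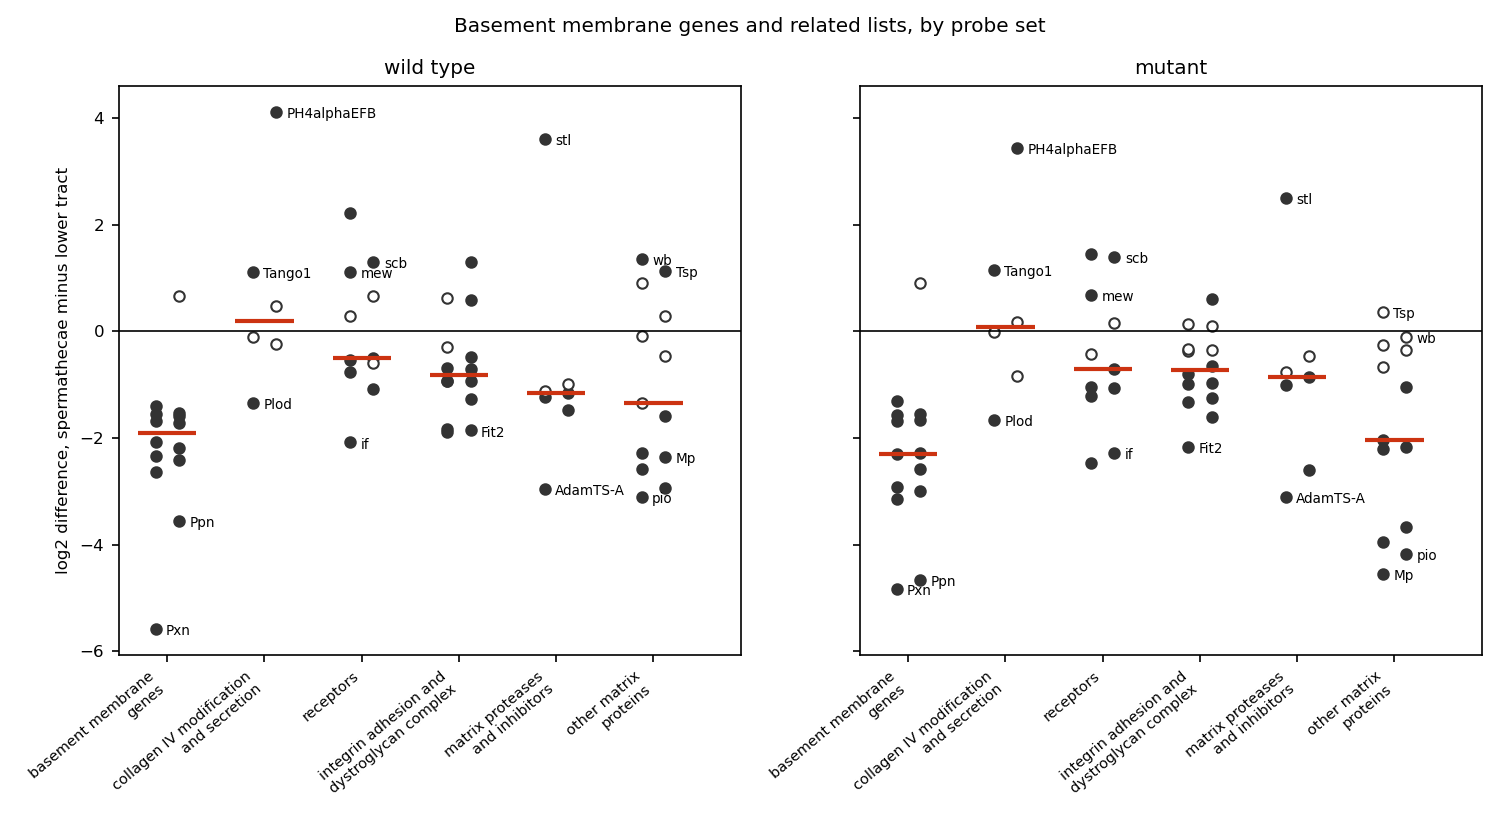
Log2 difference between spermathecae and lower tract for each tested probe set of the basement membrane genes and of 5 related gene lists, in wild type (left) and the mutant (right). Filled points passed at an adjusted p below 0.05 and red bars are list medians; PH4alphaEFB at 4.11 and stl at 3.60 lie above 0 in wild type while Pxn at -5.58 and Ppn at -3.55 lie below it.

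The comparison of genotypes asks which of these transcripts differ when Hr39 is mutated. In the spermathecae Ppn and Col4a1 fell, 2 of 14 tested probe sets, and 0 rose. Over all probe sets 3.89% were called lower and 4.04% higher. The median difference of the 14 was -0.28, against 0.02 over all tested probe sets. Ppn fell from 139 and 118 in wild type to 62.75 and 61.7 in the mutant, 1.99-fold lower (log2 -0.996, SE 0.156, adjusted p = 0.00384). Its call held under 16 of 17 alternatives and missed at an adjusted p of 0.0503 in a fit of the 4 spermatheca arrays alone. Col4a1 fell from 329 and 227 to 157 and 164, 1.69-fold lower (log2 -0.75, SE 0.198, adjusted p = 0.0467). The Col4a1 call was lost under 12 of 17 alternatives (adjusted p from 0.0113 to 0.197 over all of them). Without wild-type spermathecae replicate 1, the array with the raised actin ratio, Col4a1 differed by -0.49 (adjusted p = 0.197), and without wild-type lower tract replicate 1 the adjusted p was 0.061. Of the single arrays, leaving out wild-type spermathecae replicate 2 kept the call, with a difference of -1.02 (adjusted p = 0.0113), and leaving out any of the other 7 ended it.

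No other member passed in the spermathecae, which leaves 12 probe sets without a call. The vkg signals of 71.3 and 104 in the mutant lay below the 189.6 and 124 of wild type, with a difference of -0.80 (95% interval -1.46 to -0.15, adjusted p = 0.143). LanA differed by -0.55 (-0.99 to -0.11, adjusted p = 0.13), while LanB1 and LanB2 were at 0.52 (0.06 to 0.98, adjusted p = 0.17) and 0.42 (0.06 to 0.77, adjusted p = 0.157). The chains of the laminin trimer thus had differences of both signs, none of which passed. SPARC differed by -0.39 (adjusted p = 0.47) and passed without wild-type spermathecae replicate 2, at -0.87 (adjusted p = 0.0322), while without replicate 1 it was at 0.09 (adjusted p = 0.874). The 5 trol probe sets ranged from -0.40 to 0.45, Ndg was at -0.33 (-0.89 to 0.22, adjusted p = 0.493) and Pxn at 0.51 (-0.05 to 1.08, adjusted p = 0.28).

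In the lower tract 0 of the 14 passed, where 3.33% of all probe sets were called lower and 2.47% higher. Before adjustment 1759 of all 10113 tested probe sets had a limma p below 0.05, and of the 14 there were 5. These were Col4a1 at -0.54 (95% interval -0.98 to -0.10, adjusted p = 0.184), vkg at -0.70 (-1.35 to -0.04, adjusted p = 0.253), LanB1 at 0.56 (0.11 to 1.02, adjusted p = 0.178), LanB2 at 0.40 (0.05 to 0.76, adjusted p = 0.216) and trol 1641442_a_at at 0.51 (0.12 to 0.90, adjusted p = 0.153). For each of these 5 the mutant and wild-type arrays did not overlap. The same held for SPARC, Ndg and trol 1640223_a_at, 1640189_at and 1628566_at, so non-overlap did not set the 5 apart. Its share over all probe sets was not counted. Ppn differed by 0.11 (-0.24 to 0.46), LanA by 0.10 (-0.34 to 0.54) and Pxn by -0.23 (-0.80 to 0.34). Ndg was at 0.54 (-0.02 to 1.09, adjusted p = 0.303) and SPARC at -0.26 (-0.89 to 0.36).

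**Figure D4:**
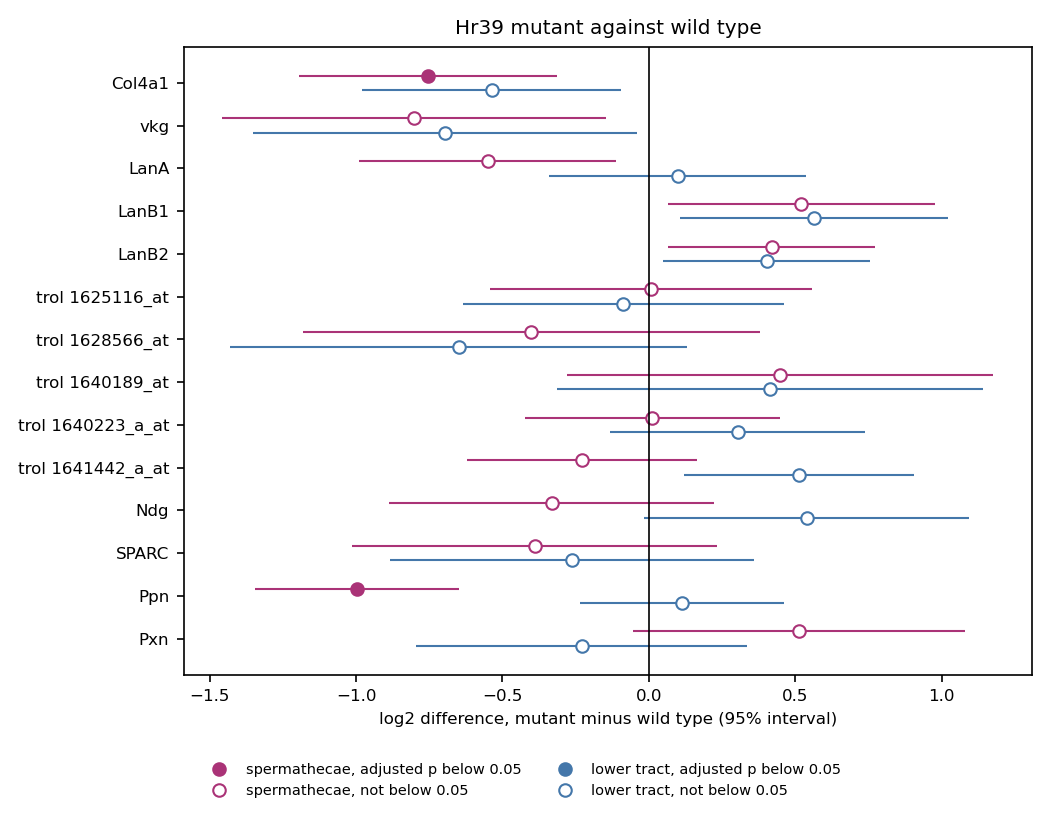
Log2 difference between Hr39 mutant and wild type for the 14 tested probe sets of the basement membrane genes, in spermathecae (purple) and lower tract (blue), with 95% intervals from limma; filled points passed at an adjusted p below 0.05. Ppn (-0.996) and Col4a1 (-0.75) passed in the spermathecae, no point passed in the lower tract, and in both organs Col4a1 and vkg lie below 0 and LanB1 and LanB2 above it.

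The mutant effect was also averaged over both organs, a contrast added after the values had been seen, from the same arrays. Col4a1 (-0.65, SE 0.14, adjusted p = 0.016), vkg (-0.75, SE 0.207, adjusted p = 0.0468) and Ppn (-0.44, SE 0.111, adjusted p = 0.0304) passed as lower in the mutant. LanB1 (0.54, SE 0.144, adjusted p = 0.0403) and LanB2 (0.41, SE 0.112, adjusted p = 0.0439) passed as higher, so 3 of 14 fell and 2 rose. Over all probe sets 5.35% were called lower and 5.58% higher. The calls were close to the threshold. Over 16 alternatives Col4a1 kept its call in 12, Ppn in 8, vkg and LanB1 in 6 each and LanB2 in 4, while each difference kept its sign in every one. Leaving out 1 array gave 0 to 6 calls among the basement membrane genes, with 0 without mutant spermathecae replicate 1 or without mutant lower tract replicate 2. It gave 1 without mutant spermathecae replicate 2, without wild-type spermathecae replicate 1 or without wild-type lower tract replicate 2. It gave 2 without replicate 1 of the mutant or of the wild-type lower tract. It gave 6 without wild-type spermathecae replicate 2. Without wild-type lower tract replicate 1 the lost calls were vkg (-0.69, adjusted p = 0.123), LanB1 (0.57, adjusted p = 0.0646) and LanB2 (0.40, adjusted p = 0.0956). Without wild-type spermathecae replicate 1 they were vkg (-0.60, adjusted p = 0.13), LanB1 (0.45, adjusted p = 0.091), LanB2 (0.39, adjusted p = 0.0791) and Ppn (-0.38, adjusted p = 0.0593). There were 0 calls with no variance trend, 2 with median centring, and 3 with quantile normalization.

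A test of whether the mutant effect differed between organs passed for Ppn alone of the 14, where 1.29% of all probe sets were called lower and 1.76% higher. Ppn differed by -0.996 in spermathecae and 0.11 in the lower tract, a difference of -1.11 between the effects (SE 0.221, 95% interval -1.60 to -0.62, adjusted p = 0.0269). The call held under 10 of 16 alternatives. It was lost with no variance trend (adjusted p = 0.0817), without replicate 1 (0.177) or replicate 2 (0.107) of the mutant lower tract, without replicate 1 (0.0974) or replicate 2 (0.102) of the mutant spermathecae, and without wild-type lower tract replicate 1 (0.0924). For Col4a1 the effects of the organs differed by -0.22 (-0.84 to 0.41, adjusted p = 0.794), for vkg by -0.10 (-1.03 to 0.82), for LanB1 by -0.04 (-0.69 to 0.60) and for LanB2 by 0.02 (-0.48 to 0.52). For LanA, Ndg and trol 1641442_a_at the effects differed by -0.65, -0.87 and -0.74, and these did not pass (adjusted p = 0.33, 0.296 and 0.187).

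Related matrix genes also differed between the genotypes. In the spermathecae 4 of 13 tested probe sets of other matrix proteins fell and 0 rose. As background, 3.89% of all probe sets were called lower there and 4.04% higher. Mp 1632932_a_at fell from 279 and 233 to 85.3 and 84.4 (log2 -1.54, SE 0.174, adjusted p = 0.000526) and its second probe set by -1.83 (adjusted p = 0.0418). The laminin alpha gene wb fell by -1.26 (adjusted p = 0.0145) and dpy (dumpy, a giant apical matrix protein) by -1.36 (adjusted p = 0.00159). The effect on Mp 1632932_a_at differed between the organs by -1.60 (adjusted p = 0.00738), since it was at 0.06 in the lower tract. Of 11 tested receptor probe sets 1 was called in the spermathecae, mew 1640547_at, which fell by -0.67 (adjusted p = 0.0298). The inhibitor and protease list, with 7 tested probe sets, had 1 fall, AdamTS-B at -1.92 (adjusted p = 0.0183), and 1 rise, Reck at 1.13 (adjusted p = 0.022). Of 14 tested probe sets of the intracellular adhesion list 2 rose and 1 fell. The rises were ics (the Rsu1 homolog icarus) at 1.08 (adjusted p = 0.00471) and Scgbeta (a sarcoglycan) at 2.20 (adjusted p = 0.0212). The fall was Dys (dystrophin) 1625988_a_at at -0.60 (adjusted p = 0.0459). None of 6 tested probe sets for collagen IV modification and secretion passed there in limma (smallest adjusted p = 0.333, with 0 at an unadjusted p below 0.05).

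In the lower tract PH4alphaEFB rose by 0.65 (SE 0.14, adjusted p = 0.0245), from 446 and 476 to 693 and 763. The beta integrin gene Itgbn rose by 1.43 (adjusted p = 0.00799), from 92.4 and 98.4 to 241 and 288, and mys, also a beta integrin gene, by 0.69 on 1639245_x_at (adjusted p = 0.0421). Of the other matrix proteins, Tsp (thrombospondin) rose by 1.17, NetB (a netrin) by 1.20 and pio by 0.74, and dpy fell by -0.78. The adhesion gene ics rose by 1.14 (adjusted p = 0.00419). Of the 7 tested probe sets for matrix proteases and inhibitors 0 passed there in limma (smallest adjusted p = 0.527, with 0 at an unadjusted p below 0.05). Of the other lists, calls there were 1 of 6 tested probe sets for collagen IV modification and secretion and 2 of 11 for receptors. They were 1 of 14 for intracellular adhesion and 4 of 13 for other matrix proteins. As background, 2.47% of all probe sets were called higher in the lower tract and 3.33% lower.

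Markers of cells that can make matrix proteins differed between the genotypes too. Of all probe sets 2.47% were called higher and 3.33% lower in the lower tract, and 4.04% higher and 3.89% lower in the spermathecae. The summed hemocyte signal was 1947 and 2795 on wild-type lower tract replicates 1 and 2, and 3432 and 3779 on those of the mutant. Replicate 1 of the wild-type lower tract is the array with germline RNA. In the mutant lower tract 3 of 10 hemocyte markers rose and 0 fell. These were NimC1, a phagocytosis receptor, at 2.82 (adjusted p = 0.00102), the scavenger receptor Sr-CI at 1.55 (adjusted p = 0.0186) and the prophenoloxidase PPO1 at 0.90 (adjusted p = 0.0163). Of 6 fat body markers 3 fell there and 0 rose, with the lipid transfer particle gene Apoltp at -2.33 (adjusted p = 0.000317), the lipophorin gene apolpp at -1.39 and the lipid droplet gene Lsd-1 at -0.96. In the mutant spermathecae 0 of 10 hemocyte markers passed in limma (smallest adjusted p = 0.149, with 1 at an unadjusted p below 0.05), and 1 of 6 fat body markers rose. Muscle markers rose for 4 of 20 and fell for 1 in mutant spermathecae. Their part in the differences of the basement membrane genes was not tested.

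Among genes outside the set, those whose pattern over the 8 arrays was most like the mean profile of the basement membrane genes were Prm (paramyosin, a muscle thick filament protein), Smyd4-3, CG34398, SmydA-2 and Ptp4E (a receptor tyrosine phosphatase), with Pearson r from 0.998 to 0.999. Prm 1632854_s_at read 5938 to 7616 in the lower tract and 264 to 419 in spermathecae. Ptp4E read 1347 to 1746 in the lower tract and 353 to 398 in spermathecae. The arrays form 2 clusters by organ, so these correlations mostly describe the organ difference, and they are given with no p. Of the set's own probe sets, LanA (0.994), trol 1640223_a_at (0.993) and Ppn (0.992) lay nearest to the mean profile and trol 1628566_at (-0.756) farthest. The mean profile is made from these same genes, which raises their r. Of all 10113 tested probe sets, the set's own included, 488 had an r above the median of the set's probe sets.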

How the data were processed

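RNA from 8 samples was hybridised to Affymetrix Drosophila arrays, and the intensity values analysed here are those the authors deposited, which per the submitters' processing notes come from MAS5 (version not given in the sources used here). Each array's mean after trimming 2% at each end was 150.0, as a global scaling gives. Of 18952 probe sets 183 were controls. Of the rest 13647 carried 1 gene symbol in the platform annotation, 402 several and 4720 none, and no gene was named from several.

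Signals were taken as log2(value + 4), since MAS5 values are linear. The 10113 probe sets at or above the array median in both replicates of 1 group or more were fitted with limma 3.58.1 (R 4.3.3), with 1 mean per group over 8 arrays and a variance trend. P-values were Benjamini-Hochberg adjusted over all of them. The code was tested on simulated data. The 2 arrays per group limit the precision.

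The members and lists were chosen with earlier results of these data known. All 10 genes are named, with up to 4 called probe sets of each related list per comparison, by adjusted p, and the 5 genes most like the mean profile. Other list genes were named after their values were seen. Alternatives were quantile normalization, median centring, no pseudocount or one of 20, no filter or a 75th percentile filter, a fit without the variance trend, a replicate block, a fit of the 4 arrays compared, and leaving out each array. Listed genes without a probe set of a single symbol were not analysed here.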

Additional observations from a re-analysis of the deposited data

Results flagged for a closer look

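For 12 probe sets among the basement membrane genes and the related lists, the effect of the Hr39 mutation differed between spermathecae and lower tract by the interaction term of limma. Values are the log2 effect in spermathecae minus that in the lower tract, with adjusted p-values. The lists with a call held 14 tested probe sets of the basement membrane genes, 13 of other matrix proteins, and 6 fat body, 10 hemocyte and 20 muscle markers. Tested without a call were 11 probe sets of receptors, 14 of intracellular adhesion, 7 of proteases and inhibitors and 6 of collagen IV modification. Also without a call were 11 secretory, 5 follicle and eggshell, 4 tracheal, 3 neuron and 4 germline markers. As background, 1.76% of all probe sets were called higher and 1.29% lower. Among the basement membrane genes this was Ppn, at -1.11 (adjusted p = 0.0269), a call lost without wild-type lower tract replicate 1 and in other refits given above. For the other genes named here such refits are not given. Among other matrix genes it was Mp 1632932_a_at at -1.60 (adjusted p = 0.00738) and pio 1631454_a_at at -1.07 (adjusted p = 0.0423).

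Of the fat body markers Apoltp was at 2.12 (adjusted p = 0.00644), Lsd-1 at 1.70 (adjusted p = 0.00838), apolpp at 1.68 (adjusted p = 0.0353) and FASN1 at 1.13 (adjusted p = 0.0419). Of the hemocyte markers PPO1 was at -1.38 (adjusted p = 0.0177), NimC1 at -2.31 (adjusted p = 0.0328) and Sr-CI at -1.94 (adjusted p = 0.0494). Of the muscle markers Strn-Mlck 1634574_a_at was at 1.39 (adjusted p = 0.0151) and Mf 1635372_a_at at 1.43 (adjusted p = 0.0172).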

How the results depend on the processing

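Between organs 13 basement membrane probe sets were called lower under every alternative but the stricter filter, which left 12 tested and 12 lower in each genotype. A call of trol 1628566_at as higher made 14 calls in both genotypes with quantile normalization, and in the mutant with median centring, with no variance trend and without mutant spermathecae replicate 1. Leaving out 1 array thus gave 13 in wild type and 13 to 14 in the mutant. The mutant count in the lower tract stayed at 0 when 1 array was left out. In the mutant spermathecae the 2 calls became 1 with quantile normalization, no pseudocount, no filter or no variance trend, and 0 in the fit of 4 arrays. Leaving out 1 array gave 1 to 3. The single difference between organs became 0 with no variance trend, and 0 to 1 without 1 array. The 5 calls averaged over both organs became 3 with quantile normalization, 2 with median centring or no filter, 0 with no variance trend, and 0 to 6 without 1 array. The cause of these changes was not tested. Median centring moved the median of all tested probe sets by 0.17 in the organ comparison of wild type and by 0.16 in the mutant, and quantile normalization by 0.11 and 0.04. No called value changed sign, and the 40 sign changes among 1388 refits of single probe sets were of uncalled values (smallest adjusted p = 0.629).

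Replicate 2 is the array of each group whose title marks it as a duplicate. The labels do not say whether arrays of the same number belong together. Deviations of same-numbered arrays correlated between -0.03 and 0.03. With the replicate block the count averaged over both organs was 3 in place of 5. With 2 arrays per group and 4 residual degrees of freedom, a p above the threshold does not show that values were alike.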
